A study of Schizosaccharomyces pombe with 127 samples.

Results

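The vacuole of fission yeast (Schizosaccharomyces pombe) is an acidic compartment in which proteins are broken down, as in the lysosome of animal cells. The 4 genes described here were taken by name out of 4816 named genes on the arrays. They are isp6 (SPAC4A8.04), psp3 (SPAC1006.01), cpy1 (SPAC19G12.10C) and pbi2 (SPCC338.12). Of these, isp6 encodes a vacuolar serine protease of the subtilisin type, related to proteinase B of budding yeast, and psp3 encodes a second subtilisin-type serine protease. The third, cpy1, encodes carboxypeptidase Y, which trims proteins from their carboxyl end, and pbi2 encodes a small protein related to the budding yeast inhibitor of proteinase B.

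When nitrogen runs out, fission yeast cells enclose part of their cytoplasm in autophagosomes and deliver it to the vacuole, where proteases release amino acids that the cell can use again. In this species Isp6 and Psp3 are known to be needed to break down what autophagy delivers. In budding yeast the inhibitor Pbi2 holds proteinase B in check and also takes part in vacuole fusion.

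RNA was measured on 2-colour microarrays in deletion strains, most of them each lacking 1 kinase gene, grown at 30 degrees in minimal medium. One group was taken in log phase with nitrogen present (0 min, 63 deletion strains and 1 wild-type culture) and the other after 60 min without nitrogen (62 deletion strains and 1 wild-type culture). Strain RNA carried Cy5 and a pool of wild-type RNA, the same kind of reference on all 127 arrays, carried Cy3. A level here is the log2 ratio of strain to pool, centred on the median of its array and averaged over the 2 probes of a gene. A change is the level at 60 min minus that at 0 min under the same strain label. Each strain had 1 array per time, so no single strain could be tested, and the p-values given rest on how far the strains differ among themselves.

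As a check of the labels, the level of the deleted gene was compared across all deletion arrays. At 0 min 52 of 62 measured strains had the lowest level of their own deleted gene and at 60 min 47 of 61 had it, with mean deviations of -1.89 and -1.79. For ppk18 the deleted gene was not measured, so that label was not checked. A total of 6 strains passed this check at 0 min but failed it at 60 min (atf1, byr1, cdk11, ppk22, ppk33 and srb10), and results that touch these arrays are given for "the array labelled" so. Another 8 failed it at both times (chk1, hri1, mde3, mug27, ppk38, spo4, srk1 and wis1), so their names below stand for the labels, with no deletion visible on the arrays. The ppk15 and cmk2 strains failed it at 0 min alone, with their deleted gene at ranks 3 and 13 from the lowest. Array numbers run below 1200 for 56 of the 62 strains with both arrays; ppk18, ppk27, ppk32, cyr1, cgs1 and rst2 carry later numbers. Among the 2016 pairings of 0 min arrays 9 gave a correlation under -0.3 across probes, down to -0.42, while the least correlated pairing at 60 min had 0.65. Log2 ratios at 0 min were spread less widely, with a mean SD over probes of 0.36 against 0.98 at 60 min.

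All 4 genes rose without nitrogen, and in each of the 62 deletion strains the 60 min level of each gene was above its 0 min level. Those of isp6 and pbi2 rose most, 23.95-fold and 19.9-fold on average, followed by psp3 with 5.56-fold and cpy1 with 2.45-fold. Over all 4929 features tested, limma with Benjamini-Hochberg adjustment called 7.53% higher and 8.76% lower, where a call needs a change of 2-fold or more besides an adjusted p under 0.05. Without the least fold the shares were 46.9% higher and 40.5% lower. With 62 strains a call by adjusted p alone therefore says little about a gene, and sizes are given first below. How many of all features rose in every strain, or had times that did not overlap, was not counted. Among genes with smaller changes, the vacuolar ATPase gene vma5 (0.87 in log2) also rose in all 62 strains, while vma3 rose in 36. A rise in every strain is therefore not particular to these 4 genes.

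The level of isp6 at 0 min ran from -0.60 over a median of 0.19 to 0.97, and at 60 min from 4.07 over 4.69 to 5.94. The lowest strain at 60 min lay 3.10 above the highest strain at 0 min. The change was 4.58 ± 0.54 (SD, n = 62 strains), from 3.26 to 6.04, with an adjusted p of 2.44e-60. By mean change isp6 ranked 5 among all features.

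For the inhibitor gene pbi2 the 0 min levels ran from -1.08 over 0.53 to 1.37 and the 60 min levels from 2.39 over 4.93 to 5.51. The times did not overlap, with 1.02 between the highest strain at 0 min and the lowest at 60 min. Its change was 4.32 ± 0.56 (SD, n = 62), from 2.47 to 5.32, with an adjusted p of 1.80e-58, and it ranked 9 among all features.

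Levels of psp3 lay between -0.67 and 1.22 at 0 min, with a median of 0.23, and between 1.65 and 3.61 at 60 min, with a median of 2.75. Here the times came closer, 0.43 apart at the nearest strains. The change of psp3 was 2.48 ± 0.42 (SD, n = 62), from 1.46 to 3.62, with an adjusted p of 2.10e-51 and rank 61.

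The carboxypeptidase gene cpy1 showed the smallest rise. Its levels ran from -0.65 over -0.04 to 0.71 at 0 min and from 0.60 over 1.29 to 2.12 at 60 min, so the highest strain at 0 min (gad8) was above the lowest at 60 min (fin1). The change was 1.29 ± 0.34 (SD, n = 62), from 0.47 to 2.06, with an adjusted p of 6.99e-40 and rank 228. It was at least 2-fold in 51 of 62 strains, against 62 of 62 for each of the other 3 genes.

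With quantile normalization between arrays, which gives each array the same spread of ratios, the changes were 2.74 for isp6, 2.06 for pbi2, 1.36 for psp3 and 0.97 for cpy1. The last is below the 2-fold limit, while the order of the genes was the same. The 60 min arrays had the wider spread before this step.

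**Figure D1:**
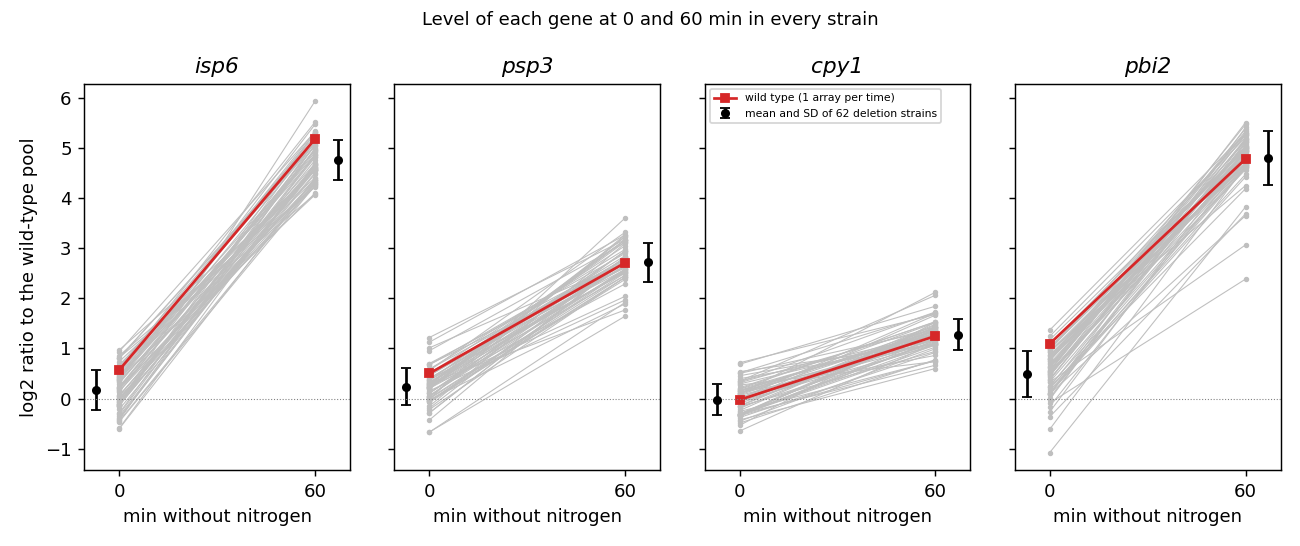
Level of isp6, psp3, cpy1 and pbi2 (log2 ratio to the wild-type pool) at 0 and 60 min without nitrogen; each grey line is 1 of 62 deletion strains, the red squares are the wild type (1 array per time) and black points with bars are the mean and SD of the strains. The lines of isp6, psp3 and pbi2 end above every 0 min value of the same gene, while the cpy1 values of the times overlap between 0.60 and 0.71.

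In the wild type, with 1 array per time, all 4 genes also had a higher level at 60 min. Its isp6 levels were 0.57 at 0 min and 5.18 at 60 min, a change of 4.61 that took rank 32 from the lowest when placed among the 62 strains. For cpy1 the wild type stood at -0.03 and 1.25, a change of 1.27 and rank 31. For psp3 the values were 0.50 and 2.71, a change of 2.21 and rank 16. For pbi2 they were 1.09 and 4.78, a change of 3.69 and rank 5. By its change the wild type therefore lay near the middle for isp6 and cpy1 and toward the low end for pbi2. By its levels it stood high for isp6 at both times, at ranks 51 and 54. For psp3 the ranks were 52 at 0 min and 30 at 60 min, for cpy1 33 and 30, and for pbi2 60 and 25. The 0 min wild-type array carries a later array number than the main run, so the culture and the array series cannot be told apart there. The same holds for the wild-type changes, since the 60 min array has a number in the main run. That 60 min array is wild type by its title, while a second field names a kinase deletion.

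The genes differed in how much they varied between strains. The SD of the change was larger for pbi2 than for 94.3% of all features, for isp6 than for 93.7%, for psp3 than for 83.4% and for cpy1 than for 64.7%, where the median feature had an SD of 0.29. At 0 min the same shares were 95.3% for pbi2, 92.0% for isp6, 88.5% for psp3 and 78.9% for cpy1. The probes of each gene are separate measurements on the same array, and their levels correlated over strains between 0.71 (psp3, 0 min) and 0.92 (isp6, 0 min). The difference between the probes had an SD over strains from 0.15 (cpy1, 0 min) to 0.31 (psp3, 60 min), against SDs of the gene levels from 0.31 (cpy1, 60 min) to 0.55 (pbi2, 60 min).

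**Figure D2:**
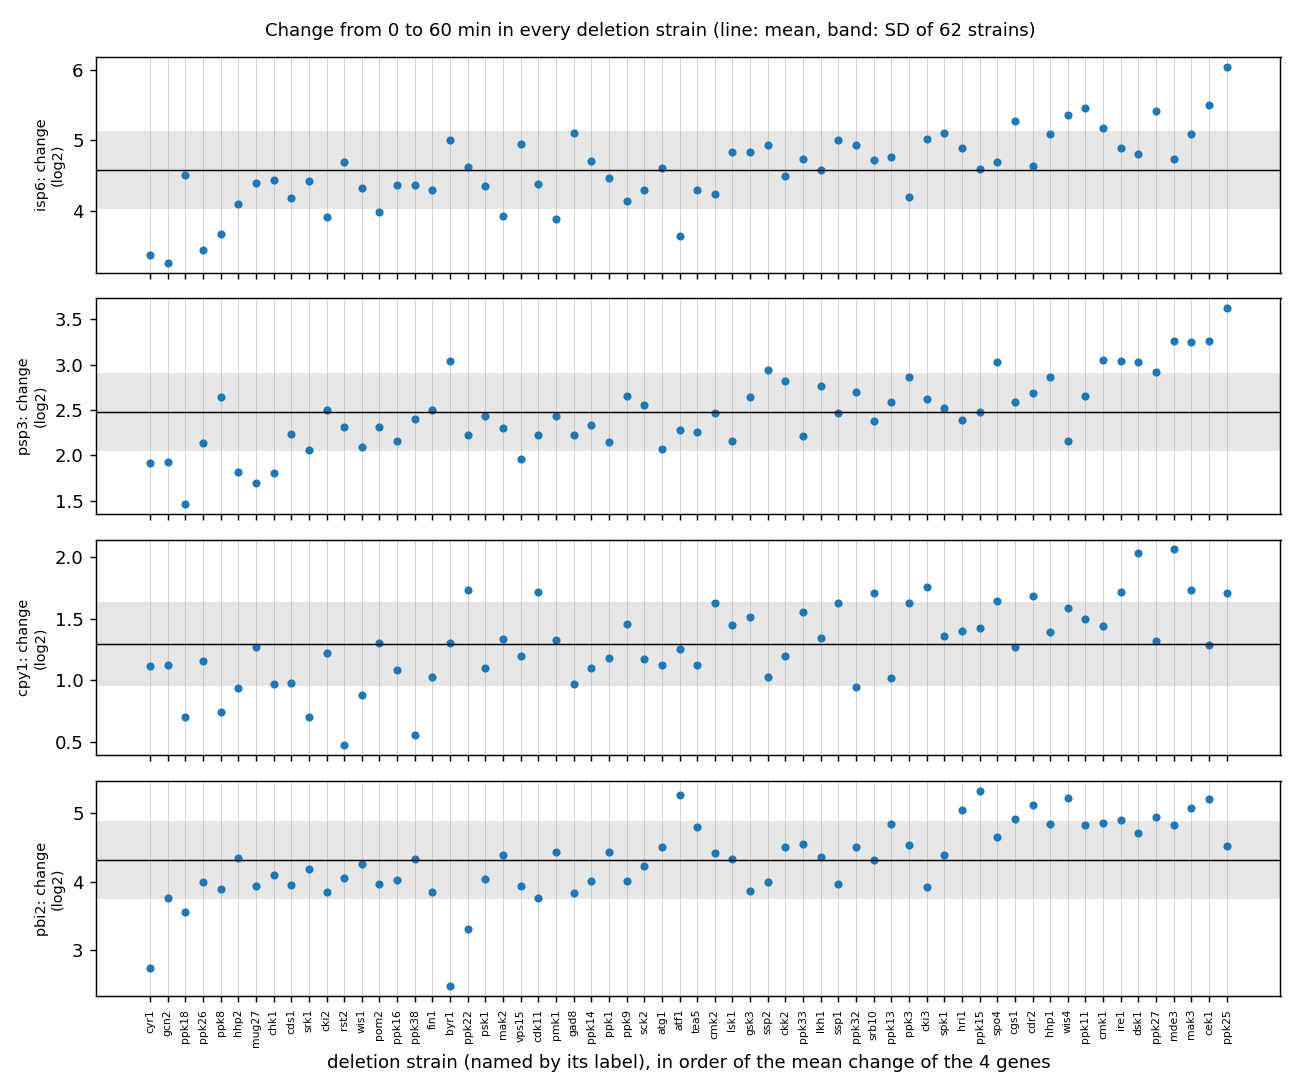
Change from 0 to 60 min (log2) of each gene in each of 62 deletion strains, ordered by the mean change of the 4 genes; the line is the mean and the band the SD over strains. The isp6 and psp3 changes are highest in ppk25 (6.04 and 3.62), and the lowest pbi2 changes are those of the pair labelled byr1 (2.47) and of cyr1 (2.74).

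For isp6 the highest 0 min levels were those labelled ppk26 (0.97), mug27 (0.94) and cyr1 (0.86), and the lowest were byr1 (-0.60), cgs1 (-0.59) and srb10 (-0.47). The highest 60 min levels were those of the strains lacking ppk25 (5.94), vps15 (5.52) and gad8 (5.47), the last a kinase downstream of the second TOR complex. The lowest were ppk8 (4.07), gcn2 (4.07), which lacks the kinase that senses amino acid shortage, and pmk1 (4.10). The change was smallest in gcn2 (3.26), cyr1 (3.37) and ppk26 (3.44), all 3 with high levels at 0 min (0.82, 0.86 and 0.97). Since the 0 min level is subtracted to give the change, a high 0 min level by itself lowers it. The change was largest in ppk25 (6.04), cek1 (5.50) and ppk11 (5.46).

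The psp3 gene stood highest at 60 min in ppk25 (3.61), lkh1 (3.32) and mak3 (3.27) and lowest in rst2 (1.65), ppk18 (1.77) and cyr1 (1.89). Its change was smallest in the strain labelled ppk18 (1.46), after a kinase gene of the Greatwall family, and in those labelled mug27 (1.70) and chk1 (1.80). It was largest in ppk25 (3.62), cek1 (3.26) and the strain labelled mde3 (3.26). At 0 min vps15 (1.22), ppk26 (1.13) and the strain labelled mug27 (1.01) were highest and cgs1 (-0.67), rst2 (-0.67) and cek1 (-0.43) lowest. The ppk18, cyr1 and rst2 strains all carry later array numbers.

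The cpy1 gene had its highest 60 min levels in dsk1 (2.12), ire1 (2.06) and ppk26 (1.84) and its lowest in fin1 (0.60), cds1 (0.67) and rst2 (0.74). Its change was smallest in rst2 (0.47), the strain labelled ppk38 (0.55) and ppk18 (0.70) and largest in the strain labelled mde3 (2.06), dsk1 (2.03) and cki3 (1.76). At 0 min gad8 (0.71), ppk26 (0.69) and the strain labelled ppk38 (0.54) were highest and cki3 (-0.65), the strain labelled mde3 (-0.54) and cgs1 (-0.49) lowest. For mde3 and ppk38 the array check showed no deletion at either time.

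At 0 min pbi2 was highest in vps15 (1.37), pom2 (1.24) and gad8 (1.17) and lowest in cgs1 (-1.08), atf1 (-0.61) and rst2 (-0.36). It had its highest 60 min levels in mak3 (5.51), hhp1 (5.47) and ppk15 (5.41). The array labelled byr1 was lowest at 2.39, a deviation of -5.44 SD from the other strains, followed by cyr1 at 3.07, a deviation of -3.51 SD, and ppk18 at 3.65. On this array labelled byr1 the level of atf1, a stress transcription factor gene, was -3.79, against 0.79 in the next lowest strain, fin1. On the 60 min array labelled atf1 the level of atf1 was 1.37 and that of pap1, another stress transcription factor gene, was -4.61, where the next lowest strain, chk1, had 0.23. In the 0 min arrays atf1 was lowest in the strain labelled atf1 (-4.17). The pbi2 value of 2.39 therefore comes from an array on which atf1, not byr1, had the lowest level of all strains, and it was not assigned to another strain. Without the pair labelled byr1 the mean change of pbi2 was 4.35 ± 0.51 (SD, n = 61 strains).

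Some strains stood at 1 end for several of the genes. At 0 min all 4 genes were among the 6 lowest levels in cgs1 and in byr1, and 3 were among the 6 highest in ppk26 and in mug27. At 60 min 3 of the 4 were among the 6 lowest in cgs1, in cyr1 and in rst2, and 3 were among the 6 highest in ire1 and in ppk25. The ppk25 array had the widest spread of ratios of all 60 min arrays (SD over probes 1.21), and the part of that spread in the high values was not tested.

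The cyr1, cgs1 and rst2 strains lack genes of the cyclic AMP pathway, by which glucose represses differentiation. Adenylate cyclase (cyr1) makes cyclic AMP, Cgs1 is the regulatory subunit that holds protein kinase A inactive, and Rst2 is a transcription factor which that kinase restrains. In cgs1 the 0 min levels were -0.59 for isp6, -0.67 for psp3, -0.49 for cpy1 and -1.08 for pbi2. These took ranks 2, 1, 3 and 1 from the lowest. At 60 min cgs1 stood at 4.69 for isp6, 1.92 for psp3, 0.78 for cpy1 and 3.83 for pbi2, at ranks 31, 4, 6 and 5, so isp6 was in the middle there. In rst2 psp3 was at -0.67 at 0 min and 1.65 at 60 min, and pbi2 at -0.36 and 3.69. The rst2 level of isp6 was -0.21 at 0 min (rank 11) and 4.48 at 60 min (rank 17), and that of cpy1 was 0.27 (rank 50) and 0.74 (rank 3). In cyr1, isp6 was high at 0 min (0.86, rank 60) and low at 60 min (4.22, rank 4), while pbi2 was at 0.33 (rank 20) and 3.07 (rank 2). These 3 strains, each with its deleted gene the lowest of the arrays at both times, carry the latest array numbers, so genotype and array series cannot be told apart. The response size of a strain was taken as the slope of its changes on the mean changes of the other strains. The slope used the features called at least 2-fold higher or lower without nitrogen, leaving out the 4 genes. These features were chosen from the same arrays. The slope was 0.66 in cyr1, 1.01 in cgs1 and 1.01 in rst2.

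**Figure D3:**
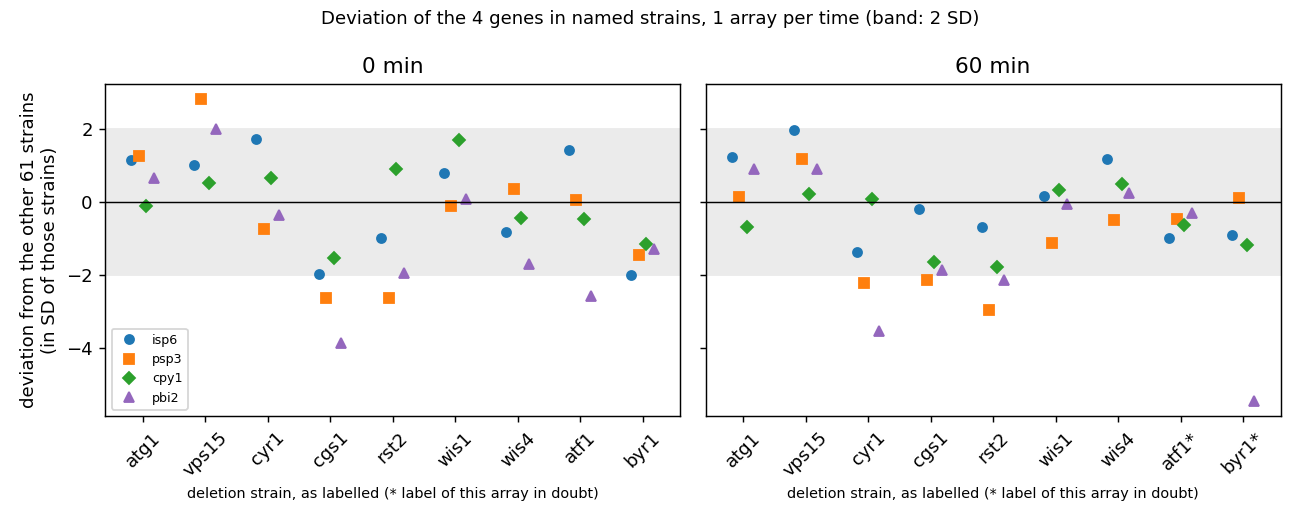
Deviation of isp6, psp3, cpy1 and pbi2 from the mean of the other strains, in SD of those strains, at 0 and 60 min in 9 named deletion strains. An asterisk marks the 60 min arrays labelled atf1 and byr1, whose labels the deleted gene does not bear out. The arrays labelled wis1 carry no asterisk, though that deletion was visible at neither time. The band spans 2 SD to each side. At 0 min psp3 is highest in vps15 (2.83 SD) and pbi2 lowest in cgs1 (-3.85 SD), and at 60 min pbi2 lies at -5.44 SD on the array labelled byr1.

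Atg1 is the kinase that starts autophagy, and Vps15 is the partner of the phosphatidylinositol 3-kinase (Pik3) that acts in autophagy and in sorting carboxypeptidase Y to the vacuole. In both strains all 4 genes had a higher level without nitrogen than with it. In atg1, isp6 went from 0.64 to 5.24, psp3 from 0.70 to 2.77, cpy1 from -0.06 to 1.06 and pbi2 from 0.79 to 5.29. In vps15, isp6 went from 0.57 to 5.52, psp3 from 1.22 to 3.18, cpy1 from 0.15 to 1.34 and pbi2 from 1.37 to 5.30.

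The vps15 strain had the highest 0 min level of the 62 strains for both psp3 and pbi2, with psp3 at 2.83 SD above the others. The atg1 strain was at rank 58 for psp3 and 45 for pbi2 there. At 60 min psp3 stood at rank 56 in vps15 and 36 in atg1. The change of psp3 was toward the low end in both, 1.96 at rank 7 in vps15 and 2.07 at rank 9 in atg1. The change of isp6 was at ranks 48 and 31 and that of cpy1 at ranks 25 and 20. The deleted gene was the lowest of the arrays in both strains at both times, and their response slopes were 0.84 in vps15 and 0.98 in atg1.

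Taken as a group of 2 strains against the other 60, atg1 and vps15 gave no call for any of the 4 genes at an adjusted p under 0.05, at either time or for the change. Over all features limma called 1.58% at 0 min, 3.0% at 60 min and 4.69% for the change. The largest difference was that of psp3 at 0 min, 0.74 ± 0.24 (SE, 95% interval 0.25 to 1.23, adjusted p = 0.102 from limma). Next came isp6 at 60 min with 0.65 ± 0.27 (SE, 0.10 to 1.19, adjusted p = 0.214 from limma) and pbi2 at 0 min with 0.61 ± 0.31 (SE, -0.01 to 1.23, adjusted p = 0.360 from limma). These differences rest unevenly on the 2 strains. Without vps15, psp3 at 0 min was at 0.48 and pbi2 at 0.32, and psp3 at 60 min was at 0.061 in place of 0.26, while without atg1 the first 2 were 1.00 and 0.90 and the third 0.47. For cpy1 the intervals were -0.38 to 0.52 at 0 min, -0.51 to 0.37 at 60 min and -0.62 to 0.34 for the change. The change of isp6 differed by 0.20 (-0.56 to 0.96), of psp3 by -0.48 (-1.06 to 0.10) and of pbi2 by -0.10 (-0.88 to 0.68). These intervals are wide for a group of 2 different genotypes and do not show that the strains respond as the others do.

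The stress pathway strains lack the kinase kinase Wis1, the kinase above it, Wis4, or the transcription factor Atf1 at the end of that cascade. None of the 4 genes was called against the other 59 strains, where limma called 0.101% of features at 0 min, 0.0% at 60 min and 0.101% for the change. At 60 min 419 features had an unadjusted p under 0.05. The inhibitor gene pbi2 had the largest difference of the 4, -0.64 ± 0.25 at 0 min (SE, 95% interval -1.14 to -0.13, adjusted p = 0.655 from limma). It stood at -0.61 in atf1 (rank 2 of 62), -0.27 in wis4 (rank 4) and 0.52 in wis1 (rank 31), so the strains of the group did not move together. Its change was 5.26 on the pair labelled atf1, 5.21 in wis4 and 4.26 in wis1, a group difference of 0.63 ± 0.31 (SE, adjusted p = 0.461 from limma). Without wis1 the pbi2 difference was -0.96 at 0 min and 0.95 for the change, and without atf1 it was -0.39 and 0.45. The other 3 genes differed by between -0.32 and 0.20 at the 2 times and for the change. The wis1 level on the arrays labelled wis1 deviated by 0.06 at 0 min and -0.27 at 60 min, so the deletion was not visible there, and the 60 min label of atf1 is in doubt as described above.

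Levels and changes of most pairs of the genes correlated over the strains. For each pair Pearson's r and Spearman's rho were computed over 62 strains at 0 min, at 60 min and for the change, with two-sided permutation p-values from 100000 resamples, adjusted over 26 relations. Of 18 pair values 17 had an adjusted p under 0.05. How many of all features would pass the same test with these genes was not counted, so the count alone does not set the pairs apart. For the change, the 95th percentile of r over all features was 0.33 with isp6, 0.39 with pbi2, 0.46 with cpy1 and 0.55 with psp3. For the called pairs, the share of features with a higher r with the same gene ran from 0.22% to 18.7%. The lowest share was that of psp3 set against isp6 and the highest that of pbi2 set against cpy1, both for the change. The values of a pair come from the same arrays and share the pool and the centring of each array, and this shared part was not measured.

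At 0 min the highest r was that of the proteases isp6 and psp3, 0.64 (rho 0.57, adjusted permutation p = 6.5e-05). The pairs isp6 and cpy1 (r 0.53, rho 0.54), psp3 and pbi2 (0.53, 0.39), isp6 and pbi2 (0.48, 0.49) and psp3 and cpy1 (0.40, 0.42) followed. For cpy1 and pbi2 r was 0.05 and rho -0.04 (adjusted permutation p = 0.687). Without the 2 strains farthest from the median of the first gene, byr1 and cgs1, r of isp6 and psp3 was 0.59.

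At 60 min the values were lower for isp6 and psp3 (r 0.37, rho 0.36) and highest for psp3 and pbi2 (0.53, 0.51) and psp3 and cpy1 (0.52, 0.48). For cpy1 and pbi2 r was 0.33 (rho 0.34, adjusted permutation p = 0.0106). The difference between the times was not tested. Without ppk25 and vps15, r of isp6 and psp3 at 60 min was 0.26.

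For the change, isp6 and psp3 gave r = 0.51 (rho 0.47, adjusted permutation p = 6.5e-05) and psp3 and cpy1 0.49 (rho 0.46, adjusted permutation p = 6.5e-05). The pairs with pbi2 gave 0.36 with isp6, 0.37 with psp3 and 0.29 with cpy1, where rho was 0.38, 0.42 and 0.32 and the adjusted permutation p was 0.00534, 0.00531 and 0.0254. For isp6 and cpy1 r was 0.32 (rho 0.36, adjusted permutation p = 0.0129). Leaving out the 2 farthest strains moved these 6 values to between 0.26 and 0.43.

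Within the 56 strains of the main array series 5 of 6 pairs kept an adjusted permutation p under 0.05 by Pearson's r at 0 min, 4 at 60 min and 3 for the change. The 3 pairs with pbi2 were those lost for the change by r, from 0.25 to 0.27. Spearman's rho kept all 3, with 0.30 for isp6, 0.35 for psp3 and 0.29 for cpy1 and adjusted permutation p-values of 0.0386, 0.0168 and 0.0392. At 60 min r lost psp3 and pbi2 (0.27) and cpy1 and pbi2 (0.28), both with an adjusted permutation p of 0.0626. There too rho kept them, at 0.45 and 0.29 (adjusted permutation p = 0.00211 and 0.0392), while isp6 and cpy1 had a rho of 0.28 (adjusted permutation p = 0.05). Without the 8 strains whose deletion was visible at neither time, left out after seeing the data, 5, 6 and 5 pairs were called by r. The call lost was that of cpy1 and pbi2 for the change (r 0.27, adjusted permutation p = 0.0525, and rho 0.29, adjusted permutation p = 0.0459).

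**Figure D4:**
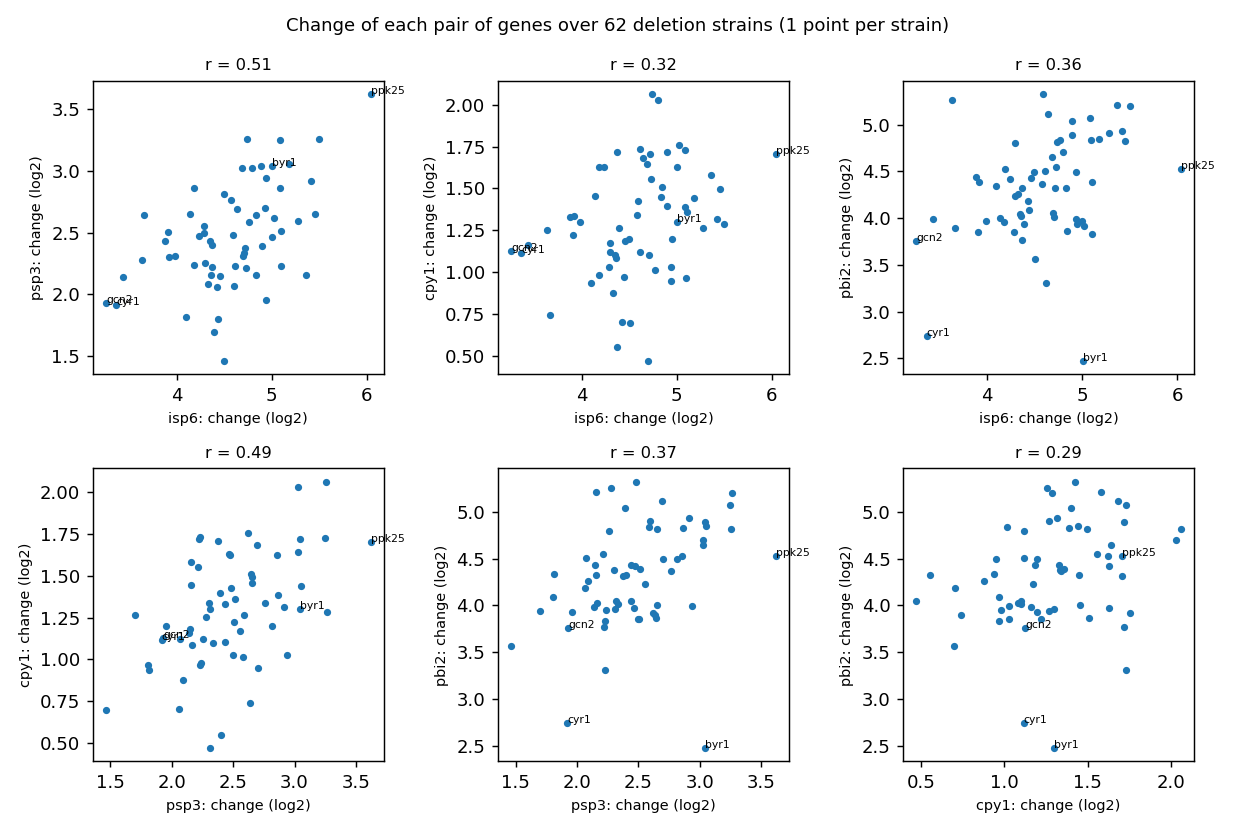
Change from 0 to 60 min (log2) of one gene against another for the 6 pairs, 1 point per strain (62 strains), with Pearson's r above each panel. The changes of isp6 and psp3 lie closest to a line (r 0.51), and the pair labelled byr1 and cyr1 sit low on the pbi2 axis (2.47 and 2.74).

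The response size of a strain, the slope over called features defined above, went with the change of pbi2 (r 0.69, rho 0.67), psp3 (0.59, 0.62) and isp6 (0.36, 0.31). The adjusted permutation p-values were 6.5e-05, 6.5e-05 and 0.00671. For cpy1 r was 0.15 (rho 0.19, adjusted permutation p = 0.249). The slope was built from features called on the same arrays, and these genes were called too. The correlation of other called features with the slope was not examined. These p-values therefore do not set the genes apart from other called features in how they follow the response size. With that size removed by a linear fit, r of the change lost its call for the 3 pairs with pbi2. It was -0.06 with psp3 (rho -0.01), 0.18 with isp6 (rho 0.25, adjusted permutation p = 0.0578) and 0.26 with cpy1 (adjusted permutation p = 0.0561), where rho kept the call at 0.28 (adjusted permutation p = 0.0392). The calls by r held for isp6 and psp3 (0.40), psp3 and cpy1 (0.51) and isp6 and cpy1 (0.29). Within the main array series r of isp6 with the response size was 0.25 (adjusted permutation p = 0.0781) and rho was 0.24 (adjusted permutation p = 0.082).

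The level of a gene at 0 min and its level at 60 min in the same strain correlated with r = 0.43 for cpy1 (rho 0.40), 0.39 for psp3 (rho 0.33) and 0.39 for pbi2 (rho 0.26), with adjusted permutation p-values of 0.00144, 0.00346 and 0.0047. For isp6 r was 0.09 (rho 0.10, adjusted permutation p = 0.481). Within the main array series r was 0.25 for psp3 (rho 0.27) and 0.23 for pbi2 (rho 0.10), with adjusted permutation p-values of r of 0.0764 and 0.0944 and of rho of 0.05 and 0.503.

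Set against all other features, psp3 ranked 12 of 4927 by r with the change of isp6, and 19 of 4928 at 0 min. From the side of psp3, isp6 ranked 337 for the change, since more features correlated with psp3 (95th percentile of r 0.55) than with isp6 (0.33). The rank of cpy1 by r with psp3 was 398 and that of pbi2 877. The pair cpy1 and pbi2 stood at rank 923 from the side of cpy1 and 589 from the side of pbi2. The median feature had r between 0.01 and 0.07 with each of the 4 genes.

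**Figure D5:**
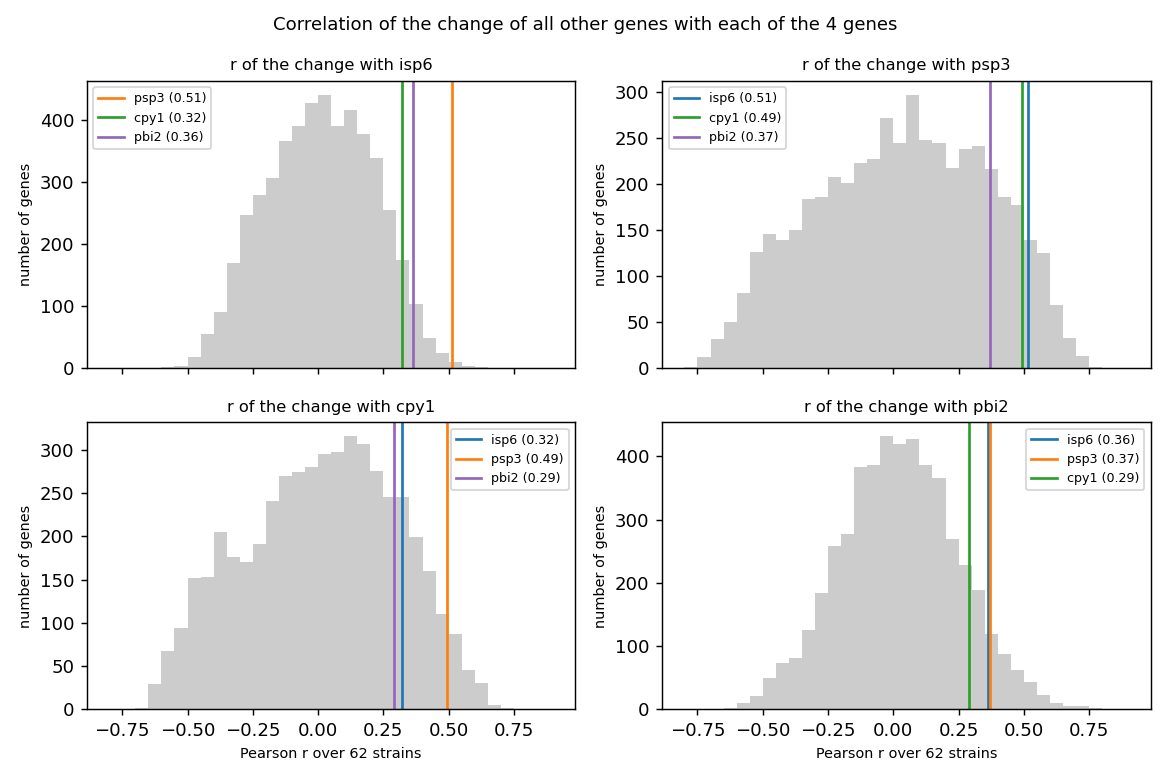
Number of features by Pearson's r of their change with that of each of the 4 genes, over 62 strains; coloured lines mark the other 3 genes. The line of psp3 stands at the upper edge of the isp6 panel (0.51), while the lines in the psp3, cpy1 and pbi2 panels fall within the right shoulder of the distribution.

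The features whose change was most like that of a gene are named by their r over the 62 strains, as a description. For psp3 these were atg8 (r 0.76), which encodes the ubiquitin-like protein of the autophagosome membrane, SPCPB1C11.02 (0.75), SPAC14C4.07 (0.75), dsc1 (0.73), a subunit of a Golgi ubiquitin ligase, and sec18 (0.73), a factor for membrane fusion. The mean changes were 1.71 for atg8, 1.02 for dsc1 and 1.32 for sec18. For isp6 they were pcr1 (r 0.61), the partner of Atf1 in a transcription factor dimer, gsf1 (0.59), msy1 (0.57), SPCC320.05 (0.56) and ptc1 (0.56), a phosphatase gene, with mean changes between 0.32 and 1.25.

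For cpy1 the nearest were fas2 (r 0.73), a fatty acid synthase subunit gene, krp1 (0.72), a gene for a protease of the secretory pathway, mug33 (0.68), puf2 (0.66) and bpb1 (0.66). Their mean changes ran from -0.06 to 0.82, all below that of cpy1, so a gene could follow cpy1 over strains without rising as much. For pbi2 the nearest were SPBC16A3.02C (r 0.79), SPAC19G12.09 (0.78), SPAC2F3.05C (0.75), SPAC26F1.07 (0.73) and SPAC9E9.04 (0.73), with mean changes of 3.27, 3.35, 2.74, 1.35 and 0.83. In the gene table of assembly ASM294v3 SPAC19G12.09 is the protein-coding gene next to cpy1. Its change correlated with that of cpy1 with r = 0.29, against 0.78 with pbi2.

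Among other genes of the vacuole none on the 3 lists below changed as much as isp6, pbi2 or psp3, while pep12, sst4 and ape2 changed slightly more than cpy1. Over all features the shares to compare are, as above, 7.53% called higher with the 2-fold limit, 46.9% higher by adjusted p alone and 8.76% called lower. Of 13 measured subunits of the vacuolar ATPase, the pump that acidifies the vacuole, none passed the 2-fold limit and 12 (92.3%) rose with an adjusted p under 0.05 from limma, with a median change of 0.49. The largest were vma5 (0.87), vma7 (0.80) and vma8 (0.68), while the proteolipid gene vma3 was at 0.05. Of 21 measured genes for transport to and fusion with the vacuole 2 (9.52%, close to the share of all features) were called at least 2-fold higher, pep12 (1.41), a syntaxin, and sst4 (1.40), an endosomal sorting protein. In this list 19 (90.5%) rose by adjusted p alone, among them ypt7 (0.96), the Rab GTPase of vacuole fusion, and the median change was 0.43. Of 7 other measured vacuolar hydrolases and polyphosphate enzymes, ape2 (1.30) and lap2 (1.21), both aminopeptidase genes, were called at least 2-fold higher (28.6% of so short a list) and 6 (85.7%) rose by adjusted p alone, with ape4 at 0.99 and a median of 0.89. None of the 3 lists had a gene called lower, and the median change of all features was 0.04. The change of cpy1, 1.29, lay above the medians of the 3 lists.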

How the data were processed

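Per the labels, strain RNA (Cy5) was hybridised with a wild-type RNA pool (Cy3) on 127 arrays, and the authors deposited 1 linear ratio per probe and array for 9858 probes. How background was corrected, how ratios were scaled and which genome build was used is not given in the sources used here. The median ratio of an array ran from 0.932 to 1.09. Signal over background is not given, so the number of arrays limits precision. The 6 values of exactly 0 were set to missing, no pseudocount was added, and log2 ratios were centred on each array's median and averaged per gene. The dye direction of the labels was kept. Names of probes come from the platform annotation, updated by the gene table of ASM294v3 (9632 with 1 symbol, 44 with several, 182 with none), giving 4929 features, 113 of them without a name. Strains whose label is a locus carry the symbol of its gene here, and those labelled skp1, prk1 and spm1 are called gsk3, srb10 and pmk1. The 60 min wild-type array was grouped by its title, which a second field, naming a kinase deletion, contradicts.

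Arrays were paired by strain name, since the labels give both as the same deletion strain. For the 6 strains that failed the label check at 60 min alone this is in doubt. They stayed among the 62 pairs, except where strains with doubtful labels were left out. Tests used limma 3.58.1 (R 4.3.3) with Benjamini-Hochberg adjustment over features with a value in at least 80% of arrays, and correlations used Python 3.11.15 with scipy 1.17.1. The fits were tested on simulated data. The 4 genes and all lists were chosen with earlier results of these data known. Named are the 3 highest and 3 lowest strains per gene and time (for the change of isp6, psp3 and cpy1 too), the pathway strains, the 5 features most like each gene by r of the change, and the 3 genes of each list with the largest change; vma3 and the strain pairs behind single results were named after their values were seen. Alternatives were centring, quantile normalization, single probes, array series, doubtful labels, thresholds, response size and strains left out. A peptidase list by product text and promoter motifs were planned and are not analysed here, and no sequences or coordinates are given.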

Additional observations from a re-analysis of the deposited data

How the results depend on the processing

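The starvation changes of isp6, psp3 and pbi2 kept their direction and call in all 12 alternatives, and that of cpy1 in 11, with 0.97 (below 2-fold) after quantile normalization. Dropping the least fold or the filter on missing values left the fits of the 4 genes unchanged. Without the replicate block, that is with the pairing by strain ignored, the count of features stayed at 803. The mean change of each of the 4 genes was the same with and without the pairing, so this count says little about the pairing. The SE of psp3 was 0.052 with the pairing and 0.068 without. The count of features was 4308 without a least fold and 478 after quantile normalization, which also gives arrays of both times the same spread. Leaving out the pair labelled byr1, or cyr1, cgs1 and rst2, or the 8 strains whose deletion was visible at neither time (all chosen after seeing the data), changed no call of the 4 genes.

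None of the 4 genes was called for either strain group in any alternative run. The counts of all features moved. For atg1 and vps15 at 0 min (78) they were 51 without centring, 0 after quantile normalization, 44 with the second probe and 154 in the main array series, and 17 without atg1 and 43 without vps15. At 60 min (148) they were 106 without atg1 and 60 without vps15, and for the change (231) 29 after quantile normalization, 17 without atg1 and 240 without vps15. For wis1, wis4 and atf1 at 0 min (5) the count was 8 in the main array series, and leaving out 1 strain gave 4 to 21, the last without wis1. At 60 min (0) it was 2 after quantile normalization, 1 with the first probe, 2 without doubtful labels and 1 to 20 with 1 strain left out, the last without atf1. For the change (5) it was 11 after quantile normalization, 3 with the first probe, 0 with the second, 9 in the main array series, 0 without doubtful labels and 0 to 11 with 1 strain left out. A lone remaining strain is assumed to vary like the others. The causes were not tested.

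Uncalled differences of the 4 genes turned sign in 20 of 252 alternative values. For atg1 and vps15, with 1 strain left out, cpy1 ran from -0.034 to 0.17 at 0 min and from -0.21 to 0.067 at 60 min, and the pbi2 change from -0.39 to 0.18. For the stress strains with 1 left out psp3 ran from -0.0040 to 0.082 and cpy1 from -0.14 to 0.20 at 0 min. At 60 min isp6 ran from -0.16 to 0.27, cpy1 from -0.041 to 0.13 and pbi2 from -0.088 to 0.062. The change ran from -0.61 to 0.26 for isp6 and from -0.23 to 0.12 for cpy1. Elsewhere in that group they were isp6 -0.011 at 0 min and 0.27 for the change (without doubtful labels), psp3 -0.037 at 0 min, isp6 -0.11 and pbi2 0.13 at 60 min and cpy1 0.015 for the change (first probe), cpy1 -0.0054 at 60 min and isp6 0.011 for the change (second probe) and pbi2 0.0011 at 60 min (no centring).

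By Pearson's r, of 230 alternative correlations 208 kept sign and call, 18 lost the call and 1 gained it. The other 3 turned sign: cpy1 and pbi2 to -0.056 at 0 min and -0.045 for the change after quantile normalization, and psp3 and pbi2 to -0.062 for the change with response size removed. Of the 18 pairs at least 12 were called in each alternative.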

Other observations

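The hal4 strain had a 0 min array alone and entered no comparison. Its levels there were -0.32 for isp6, -0.05 for psp3, -0.24 for cpy1 and 0.14 for pbi2, all between the lowest and the highest of the 62 paired strains.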
